A study of Mus musculus with 6 samples.

Results

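The mitochondrial carriers (Slc25a) and the import translocases of the outer (Tomm) and inner (Timm) mitochondrial membranes were examined in brain tissue of Dap12-deficient and heterozygous mice. Members were all probe sets whose single gene symbol in the platform annotation starts with Slc25a or is Timm or Tomm followed by digits. This gave 142 of the 45101 probe sets on the array, from 67 of the 18193 genes that a probe set names alone. They comprised 93 probe sets of 44 Slc25a genes, 27 probe sets of 15 Timm genes and 22 probe sets of 8 Tomm genes. A further 4 probe sets with several symbols, 1 of which fitted, were left out.

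Dap12, the product of Tyrobp, is a signalling adaptor of microglia that pairs with surface receptors, Trem2 among them. The group Dap12-ko held 3 arrays from the samples 67, 68 and Ko1, and the group Dap12-het held 3 arrays from the samples 75, 76 and 81. All samples were brain of mice aged 1 month, which the series design describes as midbrain with diencephalon and basal ganglia. The labels name no deleted exon, strain, sex or treatment, and do not say whether a sample is 1 animal or a pool, so the p-values cover only the variation from sample to sample, which may be technical. The heterozygous samples kept 1 working copy of the gene, and no wild-type sample was compared. In bulk tissue, fewer cells of a type and less RNA per cell cannot be told apart.

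Most of the proteins of a mitochondrion are made in the cytosol and imported. The TOM complex receives them at the outer membrane, the TIM23 complex takes those with a cleavable presequence into the matrix or inner membrane, and the small Tim chaperones hand carrier proteins to the TIM22 complex. The Slc25a carriers, themselves clients of TIM22, then exchange metabolites such as ADP, ATP, phosphate, amino acids and cofactors across the inner membrane. In brain, neurons depend on them for ATP supply and for the aspartate and glutamate shuttles.

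Tyrobp had signals of 2.28, 23.7 and 12.9 on Dap12-ko 67, 68 and Ko1, against 70.7, 68.2 and 77.6 on Dap12-het 75, 76 and 81. Every knockout array lay below every heterozygous array (limma adjusted p = 0.0439). The probe set passed the filter on level only through its heterozygous signals, so no size of change is given. Where the probe set lies relative to the deletion is not given, and the call was lost without any 1 array other than Ko1. The 3 Dap12-ko arrays differed more among themselves than the Dap12-het arrays did. Over the tested members, the log2 signals of 67 and 68 correlated at 0.96, of Ko1 with 67 and 68 at 0.90 and 0.92, of Ko1 with the heterozygous arrays at 0.94 to 0.96, of 67 and 68 with them at 0.90 to 0.93, and of the heterozygous arrays with each other at 0.98 to 0.99 (Pearson r, a description across probe sets that share each array). Median signals over all probe sets were 40.3, 35.7 and 24.6 on Dap12-ko 67, 68 and Ko1, against 20.3, 21.9 and 21.3 on Dap12-het 75, 76 and 81.

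Cell-type and region markers also moved with the arrays, and their part in the results below was not tested. The summed signal of 11 oligodendrocyte marker genes (the brightest probe set of each) ranged from 29820 to 69340 on Dap12-ko arrays, against 22290 to 23190 on Dap12-het arrays. Mbp alone gave 36160, 24720 and 11660 on Dap12-ko 67, 68 and Ko1, against 5913, 6439 and 5799 on Dap12-het 75, 76 and 81. The median log2 deviations of the 11 genes from the heterozygous mean were 0.80, 0.77 and -0.02 on Dap12-ko 67, 68 and Ko1. The corresponding sums were 20140 to 21580 on Dap12-ko arrays against 14230 to 17680 on Dap12-het arrays for 12 astrocyte genes, of which 5 had a log2 change above 0 and 7 below (median -0.06), and 3306 to 3657 on Dap12-ko arrays against 2362 to 2734 on Dap12-het arrays for 11 microglial genes. For 12 neuronal genes they were 23300 to 33070 on Dap12-ko arrays against 22500 to 23830 on Dap12-het arrays, so that the groups overlapped. Sums of 7 striatal genes were 666.8, 1226 and 7801 on Dap12-ko 67, 68 and Ko1, against 2314, 1810 and 6951 on Dap12-het 75, 76 and 81. For 7 choroid plexus genes they were 16340, 18036 and 659 on the Dap12-ko arrays, against 809, 1665 and 3771 on the Dap12-het arrays. The choroid plexus sum was nearly all Ttr (16070, 17640 and 402 on the Dap12-ko arrays, against 622, 1539 and 3532 on the Dap12-het arrays). Of the other genes of the list, Kl and Folr1 were higher on every knockout array. In Clic6, Kcne2, Sostdc1 and Aqp1 the groups overlapped, and Kcne2 and Aqp1 were highest on 67 and 68. Sums of 8 thalamic genes were 6115, 5714.5 and 1456 on the Dap12-ko arrays, against 4668.5, 6564 and 3125 on the Dap12-het arrays. Of 13 tested probe sets of hypothalamic genes 3 fell, in Baiap3 and Dlk1, and their summed signals overlapped between the groups, as did those of 9 endothelial genes. Thus 67 and 68 were the lowest arrays for the striatal sum and the highest for Ttr, and Ko1 was the highest for the striatal and the lowest for the thalamic sum.

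Of the 142 member probe sets, 109 probe sets of 57 genes had a mean level above the median of all probe sets and were tested. The comparison asked which of these transcripts differed in brains without Dap12. In the knockout, 1 probe set rose (0.917% of those tested, against 1.24% of all 22518 tested probe sets), 2 fell (1.83%, against 0.733%) and 106 did not pass the test. In either direction 2.75% were called, against 1.98% of all probe sets. The 1 that rose belongs to Slc25a4, the ADP/ATP carrier of heart, muscle and brain, and the 2 that fell belong to Slc25a39, an importer of glutathione into mitochondria, and Slc25a23, a calcium-dependent ATP-Mg/phosphate carrier. Between the groups 58 probe sets had a log2 change above 0 and 51 below (53.2% above 0, against 50.1% of all probe sets), and the median was 0.04, against 0.00 over all probe sets.

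The 3 Dap12-ko signals did not overlap the 3 Dap12-het signals for 33 member probe sets, 15 higher and 18 lower (30.3%, against 27.4% of all probe sets, of which 14.9% were higher and 12.5% lower). At an unadjusted p under 0.05, limma gave 24 members, 11 higher and 13 lower, where 20.9% of all probe sets passed, 11.7% higher and 9.22% lower. Leaving out any 1 array other than Ko1 left 0 members called (15 to 20 at an unadjusted p under 0.05). In those fits 0 to 29 of all 22518 probe sets were called (2846 to 3926 at an unadjusted p under 0.05). Without Ko1 there were 26 called members, 23.9% of those tested, where 23.2% of all probe sets were called. Centring the arrays on their medians moved the median of all probe sets to -0.40 and that of the members to -0.36, leaving 16 members above 0 and 93 below, and after quantile normalization 54 were above 0 and 55 below.

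**Figure D1:**
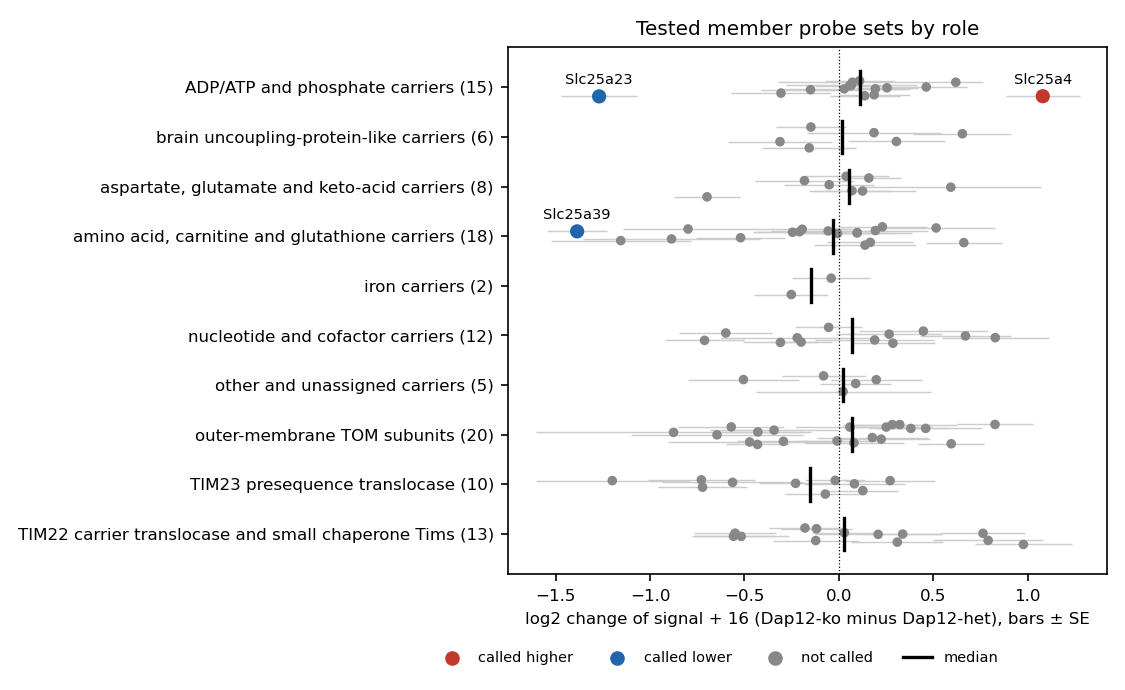
Log2 change of signal + 16 (Dap12-ko minus Dap12-het, horizontal axis) of the 109 tested member probe sets, grouped by role with the number of probe sets in brackets. Points are probe sets with bars of ± 1 standard error, black ticks are medians, and colour marks the 1 probe set that rose and the 2 that fell, which lie at the ends of the range from -1.39 to 1.08.

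The ADP/ATP and phosphate carriers move adenine nucleotides and phosphate for oxidative phosphorylation. Of their 15 tested probe sets, from 6 genes, 1 rose, 1 fell and 13 did not pass (13.3% called, against 1.98% of all probe sets). The log2 change was above 0 for 12 (80.0%, against 50.1% of all probe sets), with a median of 0.11. Slc25a5 gave 7 of these 12 and Slc25a4 gave 3. After quantile normalization 9 of the 15 were above 0, and after centring on the array medians 3 were. Slc25a4 had signals of 6053, 6063 and 4012 on Dap12-ko 67, 68 and Ko1, against 2640, 2620 and 2232 on Dap12-het 75, 76 and 81, in its brightest probe set. The means were 5376 ± 1182 in Dap12-ko and 2497 ± 230 in Dap12-het (SD, n = 3 each), and the lowest knockout array stood above the highest heterozygous one. The log2 change was 1.08 ± 0.20 (SE, limma adjusted p = 0.0391). An exact permutation test over the arrays gave p = 0.1, which is the lowest that 3 arrays against 3 allow.

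The other probe sets of Slc25a4 changed less. On the probe set of rank 3 in brightness the signals were 3528, 3638 and 4525 on Dap12-ko arrays, against 3528, 3318 and 2914 on Dap12-het arrays, a log2 change of 0.25 ± 0.16 (limma adjusted p = 0.409). On that of rank 2 they were 3394, 3850 and 4410 on Dap12-ko arrays, against 3654, 3411 and 3090 on Dap12-het arrays, a log2 change of 0.19 ± 0.16 (limma adjusted p = 0.522). In both of these Ko1 was the highest array, whereas in the called probe set it was the lowest of the knockout arrays. The call of the brightest was lost after quantile normalization (0.69, limma adjusted p = 0.11), centring on array medians (0.68, 0.0661), with no filter on level (adjusted p = 0.0952), without the trend (0.0684), and with 67 and 68 both left out (0.68, 0.0592). It was lost as well without any 1 array other than Ko1 (log2 change 0.98 to 1.12, limma adjusted p = 0.115 to 0.188).

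Slc25a23 was lower on every Dap12-ko array. Its probe set gave 173, 224 and 265 on Dap12-ko 67, 68 and Ko1, against 562, 545 and 535 on Dap12-het 75, 76 and 81, with means of 220.7 ± 45.9 in Dap12-ko and 547.5 ± 13.2 in Dap12-het (SD, n = 3 each). It fell by 1.27 ± 0.20 on the log2 scale (SE, limma adjusted p = 0.0287; exact permutation p = 0.1). Without any 1 array other than Ko1 the log2 change was -1.29 to -1.12 and the call was lost (limma adjusted p = 0.0821 to 0.188). Its relatives Slc25a24 and Slc25a25, also calcium-dependent ATP-Mg/phosphate carriers, did not pass. Slc25a25 had a log2 change of 0.11 ± 0.18. The tested probe set of Slc25a24 was lower on every Dap12-ko array, with mean signals of 22.22 in Dap12-ko and 31.08 in Dap12-het. It passed the filter on level only through its heterozygous signals, so no size of change is given.

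Slc25a5, the ubiquitous ADP/ATP carrier, is read by 8 tested probe sets, of which 7 had a log2 change above 0 and none passed. The nearest was the probe set of rank 2 in brightness, with 2682, 2464 and 2399 on Dap12-ko arrays, against 1621, 1580 and 1692 on Dap12-het arrays (0.62 ± 0.15, limma adjusted p = 0.0679). The brightest, an x probe set, gave 1920, 2219 and 2951 on Dap12-ko arrays, against 2173, 2005 and 1953 on Dap12-het arrays (0.19 ± 0.19, limma adjusted p = 0.608). There the groups overlapped, with 68 and Ko1 above and 67 below all heterozygous arrays. Slc25a4 and Slc25a5 are close in sequence, and x probe sets (a suffix of the platform's names) can hold probes that match other transcripts, so signal may be shared between them. Slc25a3, the phosphate carrier, had 3573, 3466 and 5165 on Dap12-ko arrays, against 3716, 3818 and 4003 on Dap12-het arrays (0.06 ± 0.18).

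The carriers of amino acids, carnitine and glutathione had 18 tested probe sets of 8 genes, with a median of -0.03. Of these 0 rose, 1 fell and 17 did not pass (5.56% called, against 1.98% of all probe sets). Slc25a39 gave 739, 749 and 880 on Dap12-ko 67, 68 and Ko1, against 2059, 2214 and 1983 on Dap12-het 75, 76 and 81, in its brightest probe set, an x probe set. The means were 789.5 ± 78.8 in Dap12-ko and 2085 ± 118 in Dap12-het (SD, n = 3 each), and the groups were far apart relative to the spread within each. It fell by 1.39 ± 0.16 on the log2 scale (SE, limma adjusted p = 0.0171; exact permutation p = 0.1). Without any 1 array other than Ko1 the log2 change was -1.42 to -1.34 and the call was lost (limma adjusted p = 0.0602 to 0.127).

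The other tested probe sets of Slc25a39 did not pass and did not share 1 direction. On the probe set of rank 2 in brightness the signals were 503, 669.9 and 429 on Dap12-ko arrays, against 385, 565 and 467 on Dap12-het arrays (0.17 ± 0.23). On that of rank 3 they were 149, 207 and 72.6 on Dap12-ko arrays, against 292, 261 and 185 on Dap12-het arrays (-0.80 ± 0.34, limma adjusted p = 0.231), where 68 alone reached the heterozygous range. On that of rank 4 they were 120.3, 116 and 128 on Dap12-ko arrays, against 108, 133 and 98.4 on Dap12-het arrays (0.10 ± 0.20). The call therefore rested on the brightest of the 4 tested probe sets of the gene, and that of rank 3 was also below 0 but did not pass.

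**Figure D2:**
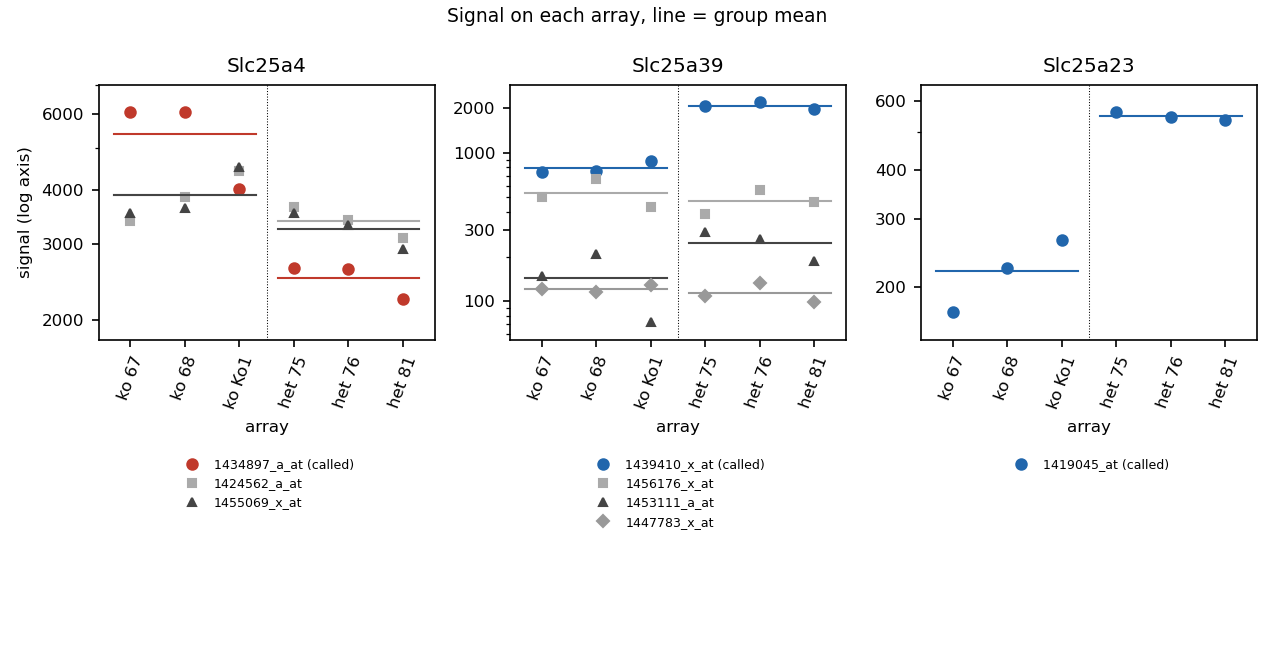
Signal (log axis, no zero) of every tested probe set of the 3 genes with a called probe set, on Dap12-ko 67, 68 and Ko1 (left of the dotted line) and Dap12-het 75, 76 and 81 (right). Points are arrays, lines are group means and colour marks the called probe sets. The called probe sets of Slc25a39 and Slc25a23 lie below the heterozygous arrays on every knockout array and that of Slc25a4 above, while the grey probe sets of the same genes mostly overlap.

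The promoter windows of the 3 called genes are shown because these genes carry the calls, 250 bases before to 50 after the start given by RefSeq on GRCm38.p6. All are on the minus strand and are written 5′ to 3′. The ETS core CCGGAAG, if present on either strand, is in capitals. Slc25a4 lies at chr8:46211013-46211312, Slc25a39 at chr11:102407468-102407767 and Slc25a23 at chr17:57059814-57060113, the upstream of its 2 overlapping windows.
Slc25a4: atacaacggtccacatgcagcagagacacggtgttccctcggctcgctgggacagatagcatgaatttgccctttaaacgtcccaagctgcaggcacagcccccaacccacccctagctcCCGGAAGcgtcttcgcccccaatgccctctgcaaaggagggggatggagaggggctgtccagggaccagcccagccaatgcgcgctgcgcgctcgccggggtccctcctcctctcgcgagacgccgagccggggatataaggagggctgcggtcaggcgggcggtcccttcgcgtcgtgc
Slc25a39: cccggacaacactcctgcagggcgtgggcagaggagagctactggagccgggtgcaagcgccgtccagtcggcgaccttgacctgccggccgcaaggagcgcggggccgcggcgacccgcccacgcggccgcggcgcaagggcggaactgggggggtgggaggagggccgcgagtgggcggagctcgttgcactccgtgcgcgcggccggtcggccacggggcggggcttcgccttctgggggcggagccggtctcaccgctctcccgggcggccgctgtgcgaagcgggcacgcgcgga
Slc25a23: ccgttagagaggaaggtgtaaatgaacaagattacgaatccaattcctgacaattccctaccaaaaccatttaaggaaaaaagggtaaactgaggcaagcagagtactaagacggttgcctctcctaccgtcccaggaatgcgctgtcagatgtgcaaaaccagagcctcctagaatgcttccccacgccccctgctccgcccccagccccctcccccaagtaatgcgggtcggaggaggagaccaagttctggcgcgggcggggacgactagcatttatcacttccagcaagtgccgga

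The Slc25a4 window holds the ETS core at base 121 of the window, and the windows of Slc25a39 and Slc25a23 hold none of the motifs searched. GC content was 65.7% for Slc25a4, 77.3% for Slc25a39 and 54.0% for Slc25a23. The motifs, searched on both strands, were the ETS core CCGGAAG, the NRF1 core GCATGCGC and the YY1 core AAGATGGCG. RefSeq held windows for 54 of the 67 member genes, 65 windows in all. The ETS core stood in 26.2% of member windows, against 8.86% of all 32851 windows, the NRF1 core in 4.62% against 2.71%, and the YY1 core in 3.08% against 1.40%. By family, the ETS core was found for 7 of 34 Slc25a, 6 of 14 Timm and 3 of 6 Tomm genes. A match is a run of letters in the window and no evidence of binding.

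Other carriers of amino acids varied around 0. Slc25a20, the carnitine and acylcarnitine carrier of fatty acid oxidation, had 40.8, 25.5 and 159.6 on Dap12-ko 67, 68 and Ko1, against 123, 126 and 116 on Dap12-het arrays (-0.89 ± 0.47, limma adjusted p = 0.322). Its low values were those of 67 and 68, and Ko1 was above every heterozygous array. The other tested probe set of Slc25a20 had 0.14 ± 0.27, with overlapping groups. Slc25a29, a carrier of basic amino acids, had 5 tested probe sets, 3 above 0 and 2 below, and none passed. The highest (rank 3 in brightness) had 0.66 ± 0.20 (limma adjusted p = 0.118), with every knockout array higher. The lowest (rank 5) gave 8.92, 36.8 and 11.6 on Dap12-ko arrays, against 84.3, 40.9 and 54.3 on Dap12-het arrays. It passed the filter on level only through its heterozygous signals, so no size of change is given. Slc25a40, the close relative of Slc25a39, had a log2 change of -0.25 ± 0.19 with every Dap12-ko array lower, and was picked here after its values were seen.

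Carriers of aspartate, glutamate and keto acids, which pass reducing equivalents and glutamate into mitochondria, had 8 tested probe sets of 6 genes, of which 0 passed, with a median of 0.05. Slc25a22, a glutamate carrier, came nearest, with 283, 287 and 234 on Dap12-ko arrays, against 434, 438 and 459.7 on Dap12-het arrays (-0.70 ± 0.18, limma adjusted p = 0.0808; exact permutation p = 0.1). Every knockout array was lower. The probe set passed when arrays were centred on their medians (-1.10, limma adjusted p = 0.0396), a scaling that shifts every probe set by the same -0.40. Slc25a12, the aspartate-glutamate carrier of brain, had 764, 915 and 803 on Dap12-ko arrays, against 787, 771 and 660.0 on Dap12-het arrays (0.16 ± 0.17). Slc25a11, the oxoglutarate-malate carrier, and Slc25a1, the citrate carrier, had log2 changes of 0.07 ± 0.20 and 0.04 ± 0.23, with overlapping groups.

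The uncoupling-protein-like carriers Slc25a27 (UCP4), Slc25a14 (UCP5) and Slc25a30 had 6 tested probe sets, of which 0 passed, with a median of 0.02. Slc25a14 had 377, 344 and 422 on Dap12-ko arrays, against 406, 381 and 488 on Dap12-het arrays (-0.15 ± 0.19). Slc25a27 had -0.31 ± 0.27 in its brightest probe set. Its other tested probe set gave 39.2, 44.8 and 43.9 on Dap12-ko arrays, against 21.3, 26.9 and 16.3 on Dap12-het arrays, and did not pass. It passed the filter on level only through its knockout signals, so no size of change is given. The iron carriers Slc25a28 and Slc25a37, the mitoferrins, had log2 changes of -0.25 ± 0.20 and -0.04 ± 0.21 and did not pass.

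Nucleotide and cofactor carriers had 12 tested probe sets of 8 genes, of which 0 passed, with 6 above 0 and a median of 0.07. Slc25a36, a pyrimidine nucleotide carrier, had 223, 213 and 311 on Dap12-ko arrays, against 434, 357 and 452 on Dap12-het arrays, in its brightest probe set (-0.71 ± 0.21, limma adjusted p = 0.112). Its probe set of rank 3 in brightness had 45.0, 86.6 and 86.0 on Dap12-ko arrays, against 34.7, 26.1 and 37.5 on Dap12-het arrays (0.83 ± 0.28, limma adjusted p = 0.148). The groups did not overlap in either, and the directions were opposite. The 2 probe sets of the NAD carrier Slc25a51 had -0.20 ± 0.16 and -0.31 ± 0.20. Of 5 tested probe sets of other or unassigned carriers, 0 passed, and Slc25a46, an outer-membrane member of the family, had -0.51 ± 0.30 and 0.09 ± 0.19.

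The TOM subunits had 20 tested probe sets of 7 genes, of which 0 passed, with 11 above 0 and a median of 0.07. The list includes Tomm34, a cytosolic cochaperone rather than a subunit. After centring on array medians 3 of the 20 were above 0. Set against the heterozygous mean, the median deviations on Dap12-ko 67, 68 and Ko1 were -0.23, -0.04 and 0.50, so Ko1 stood higher than the other knockout arrays. With 67 and 68 left out, 18 of 20 were above 0, and without Ko1, 8 were.

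Tomm20, a receptor for presequences, had 6 tested probe sets from -0.88 to 0.83. The highest, the dimmest of the 6, gave 302, 284 and 394 on Dap12-ko arrays, against 157, 194 and 177 on Dap12-het arrays (0.83 ± 0.20, limma adjusted p = 0.0739; exact permutation p = 0.1). The brightest gave 1091, 1628 and 2624 on Dap12-ko arrays, against 1671, 1703 and 1452 on Dap12-het arrays (0.06 ± 0.29). On the probe set of rank 5 in brightness the values were 76.1, 124 and 872 on Dap12-ko arrays, against 449, 512 and 272 on Dap12-het arrays (-0.88 ± 0.73), with 67 and 68 below and Ko1 above every heterozygous array.

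Tomm70a, a receptor for carrier precursors, showed the same arrangement in its brightest probe set, with 402, 563 and 1733 on Dap12-ko 67, 68 and Ko1, against 1099, 1058 and 1338 on Dap12-het arrays (-0.65 ± 0.46, limma adjusted p = 0.456). Its other tested probe sets had 0.25 ± 0.24, 0.32 ± 0.30 and -0.34 ± 0.34, with overlapping groups. Tomm22, the central receptor, had 485, 557 and 409.8 on Dap12-ko arrays, against 393, 348 and 356 on Dap12-het arrays (0.38 ± 0.19, limma adjusted p = 0.285), and every knockout array was higher. Tomm40, which forms the import pore, had 344, 431 and 192 on Dap12-ko arrays, against 298, 297 and 219.9 on Dap12-het arrays (0.18 ± 0.29). Its knockout arrays lay on both sides of the heterozygous ones. Tomm34 had 235, 232 and 228 on Dap12-ko arrays, against 317, 318 and 319 on Dap12-het arrays (-0.43 ± 0.17, limma adjusted p = 0.195), and was picked here after its values were seen.

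**Figure D3:**
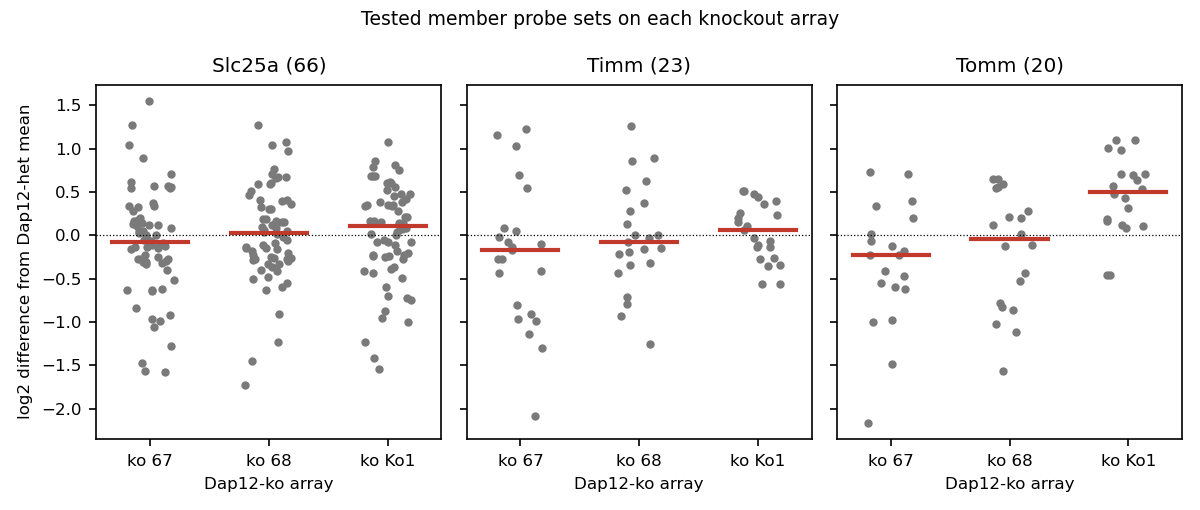
Log2 signal + 16 of each tested member probe set minus the Dap12-het mean (vertical axis) on Dap12-ko 67, 68 and Ko1. Points are the 109 tested member probe sets, split into Slc25a, Timm and Tomm. The medians over all of them were -0.13, -0.02 and 0.15, and the Tomm medians were -0.23, -0.04 and 0.50.

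The TIM23 presequence translocase had 10 tested probe sets of 6 genes, of which 0 passed, with 3 above 0 and 7 below and a median of -0.15. In 4 of them every Dap12-ko array was below every Dap12-het array, and in 0 of them above, where 12.5% and 14.9% of all probe sets did so. The 4 were the brightest probe sets of Timm44 and Timm50 and both of Timm17b, and probe sets of 1 gene are not separate observations. Timm50, the receptor that takes presequences from TOM, had 22.9, 52.8 and 121 on Dap12-ko 67, 68 and Ko1, against 158, 145 and 142 on Dap12-het arrays (-1.20 ± 0.41, limma adjusted p = 0.145). Its other tested probe set had 0.08 ± 0.27. Timm44, which tethers the import motor Hspa9, had 211, 217.5 and 351.5 on Dap12-ko arrays, against 422, 380.3 and 487 on Dap12-het arrays (-0.72 ± 0.24, limma adjusted p = 0.136). Its other tested probe sets had -0.56 ± 0.37 and 0.27 ± 0.24, with overlapping groups. In both genes the knockout arrays were all lower in the brightest probe set, with Ko1 nearest the heterozygous arrays.

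Among the channel subunits, Timm23 had 844, 912 and 1002 on Dap12-ko arrays, against 952, 932 and 907 on Dap12-het arrays (-0.02 ± 0.16), with overlapping groups. Timm17a had 663, 873 and 823 on Dap12-ko arrays, against 813, 638 and 702 on Dap12-het arrays (0.13 ± 0.19). Timm17b, its paralog, had log2 changes of -0.23 ± 0.19 and -0.73 ± 0.28 (limma adjusted p = 0.193), and every knockout array was lower in each.

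The TIM22 complex and the small Tims had 13 tested probe sets of 8 genes, of which 0 passed, with a median of 0.03. Timm8a1, a small Tim whose human counterpart is mutated in a deafness-dystonia syndrome, had 394, 349 and 248 on Dap12-ko arrays, against 208, 178 and 169 on Dap12-het arrays (0.76 ± 0.22, limma adjusted p = 0.106), and its other probe set gave 0.79 ± 0.29 (0.17). Every knockout array was higher in both. Timm13, which forms a chaperone complex with Timm8 proteins, had 403, 429 and 652 on Dap12-ko arrays, against 714, 668 and 766 on Dap12-het arrays (-0.55 ± 0.22, limma adjusted p = 0.198), all lower. Timm9 had -0.52 ± 0.25, with every knockout array lower, Timm10 had 0.03 ± 0.17 and Timm22, the channel subunit, had -0.18 ± 0.19.

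Timm29, a metazoan subunit of the TIM22 complex, had probe sets in opposite directions. On the dimmer the signals were 213, 231 and 131 on Dap12-ko arrays, against 100.5, 94.1 and 69.2 on Dap12-het arrays (0.98 ± 0.26, limma adjusted p = 0.0867). On the brighter they were 196, 333 and 254 on Dap12-ko arrays, against 372.2, 372.3 and 406 on Dap12-het arrays (-0.56 ± 0.22, limma adjusted p = 0.198). The groups did not overlap in either probe set.

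Of the 25 member genes with 2 or more tested probe sets, 77 in all, 6 had all log2 changes in 1 direction and 19 had both directions. The 4 genes with all probe sets above 0 were Slc25a26, Slc25a4, Timm8a1 and Tomm22, and the 2 with all below were Slc25a51 and Timm17b. The median range of log2 change within a gene was 0.79, and 7 genes had a range over 1. Probe sets of 1 gene share the same RNA and are not replicates. The brightest probe set of each gene had a median of -0.08, with 22 of 57 above 0 (all genes -0.09, 41.4% above 0). The other 52 had 36 above 0 and a median of 0.15 (all genes 0.14, 60.0% above 0).

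**Figure D4:**
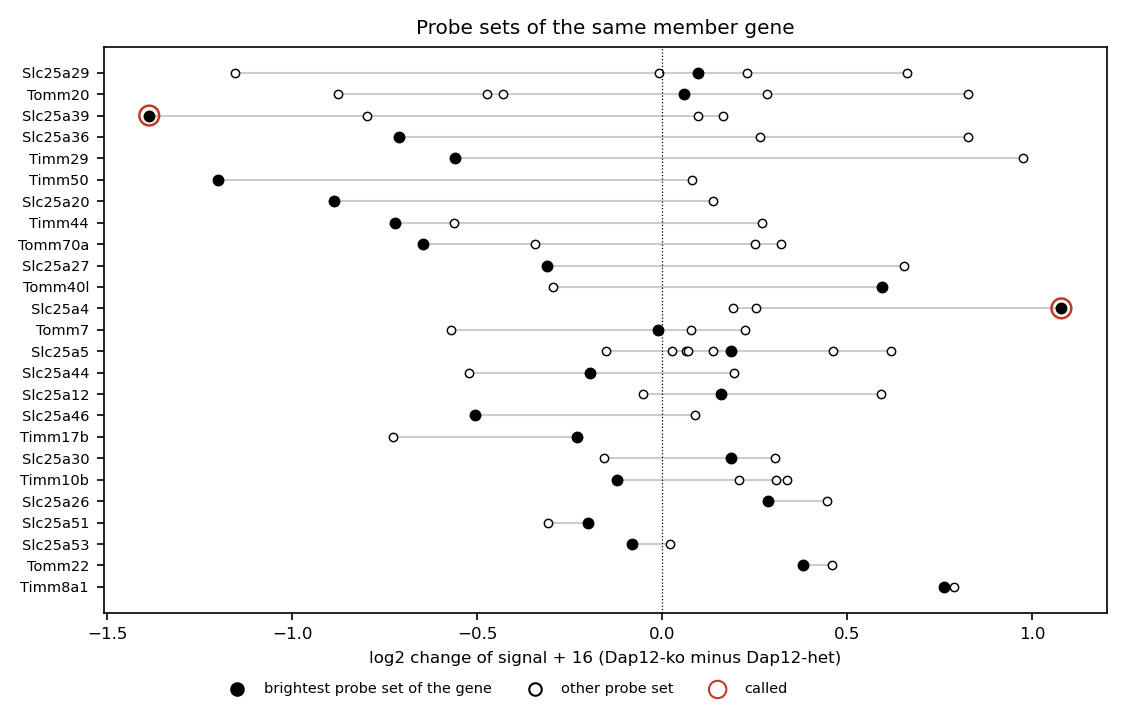
Log2 change of signal + 16 (Dap12-ko minus Dap12-het, horizontal axis) of every tested probe set of the 25 member genes with 2 or more, ordered by the range within the gene. Filled points are the brightest probe set of a gene, open points the others and rings the called ones. Of these genes 19 have probe sets on both sides of 0.

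The 3 Dap12-ko arrays did not act as 1 group across the members, nor over all tested probe sets. Over all 22518 tested probe sets 67 and 68 correlated at 0.93 and Ko1 with them at 0.85 and 0.88. Ko1 correlated with the heterozygous arrays at 0.91 to 0.93 (Pearson r). For 81 of the 109 probe sets 67 and 68 lay on 1 side of the heterozygous mean, and for 49 of these Ko1 lay on that side too, while for 32 it lay on the other. Slc25a16, a carrier linked to coenzyme A transport, had 59.3, 81.7 and 235 on Dap12-ko 67, 68 and Ko1, against 128, 125 and 129 on Dap12-het arrays, and was picked here after its values were seen. Over all members the median deviations from the heterozygous mean were -0.13, -0.02 and 0.15 on Dap12-ko 67, 68 and Ko1, against 0.04, 0.03 and 0.01 over all probe sets. With 67 and 68 both left out, 0 members were called higher and 3 lower (2.75%, against 2.73% of all probe sets). Another probe set of Slc25a39 (rank 3 in brightness) passed in that fit (-1.54, limma adjusted p = 0.0493), which assumes that the lone knockout array varies like the others.

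Partners of the import pathway outside the 3 families, such as the motor and processing peptidases, had 32 tested probe sets of 20 genes, of which 1 rose and 0 fell (3.12% called, against 1.98% of all probe sets), with a median of -0.07. The 1 that rose was a dim probe set of Hspa9, the matrix motor chaperone, with 106, 147 and 59.6 on Dap12-ko arrays, against 3.36, 13.3 and 10.8 on Dap12-het arrays (limma adjusted p = 0.0284). It passed the filter on level only through its knockout signals, so no size of change is given. The brightest probe set of Hspa9 had 0.34 ± 0.17 (limma adjusted p = 0.278). Its probe sets of rank 2 and 3 in brightness had -0.54 ± 0.24 and 0.76 ± 0.22 (limma adjusted p = 0.239 and 0.109). Other proteins of mitochondrial membrane transport had 26 tested probe sets of 15 genes, of which 1 rose and 0 fell (3.85% called, against 1.98%), with a median of 0.13. The 1 that rose was a probe set of Vdac1, the outer-membrane anion channel, of rank 3 in brightness. It gave 1980, 2330 and 1236 on Dap12-ko arrays, against 676, 803 and 727 on Dap12-het arrays (1.27 ± 0.24, limma adjusted p = 0.0418). The brightest probe set of Vdac1 had 0.33 ± 0.14 (limma adjusted p = 0.223). Those of rank 2 and 4 had -0.28 ± 0.18 and -0.42 ± 0.24 (limma adjusted p = 0.409 and 0.349). Both genes were named after their values were seen.

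In all, 33 member probe sets were too dim to be tested. No probe set was tested for 10 genes, namely Slc25a2, Slc25a13, Slc25a31, Slc25a35, Slc25a41, Slc25a47, Slc25a48, Slc25a54, Timm8a2 and Tomm20l. Their signals and those of the other untested probe sets ranged from 0.207 to 60.1 on any array. In 5 of the 33 the groups did not overlap with Dap12-ko higher, and in 0 with Dap12-ko lower, where 18.8% and 2.32% of all untested probe sets did so. The dimmest tested member was a probe set of Tomm7 (mean signal 25.8), and the brightest untested 1 was a probe set of Slc25a13, the other aspartate-glutamate carrier (mean signal 25.0).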

How the data were processed

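Brain RNA was profiled on 6 one-colour Affymetrix arrays. Per the labels, RNA was extracted with Trizol and RNeasy and labelled with biotin by the one-cycle method, and per the submitters' processing notes signals came from GCOS, whose version, algorithm and detection calls are not stated in the sources used. Deposited values are linear intensities, scaled by the authors so that the mean after trimming 2% at each end is 100 on every array.

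Genes were named from the platform annotation. Signals were taken as log2(signal + 16), so fold changes of dim probe sets are understated. Of the 45037 non-control probe sets, the 22518 with a mean above the median were tested with limma 3.58.1 in R 4.3.3 (lmFit by group, eBayes with trend, two-sided), with Benjamini-Hochberg adjustment over all of them and a threshold of 0.05. Exact permutation tests were two-sided. Log2 changes carry standard errors and signals SD (n = 3). The number of arrays limits the precision. The procedure was tested on simulated data.

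Alternatives were quantile normalization, median centring, a floor of 1, 64 added, no filter, a filter removing 75%, no trend, 1 probe set per gene and each array left out; leaving out Dap12-ko 67 and 68 together was chosen after seeing the data. Members, lists and tests were chosen with earlier results of these data known. The rule named the called members, the brightest probe set of 26 fixed genes, and the 5 smallest p-values in each direction; further genes are examples picked after their values were seen.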

Additional observations from a re-analysis of the deposited data

Results flagged for a closer look

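The 42 probe sets of non-mouse spiked control transcripts, which the comparisons do not use, were all higher on every Dap12-ko array than on every Dap12-het array. Their mean signal was 11240 ± 2990 on Dap12-ko arrays and 3624 ± 178 on Dap12-het arrays (SD, n = 3 each), a ratio of 3.1. Their part in the results of the members was not tested.

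Among the 33 member probe sets too dim to be tested, 5 had all 3 Dap12-ko signals above the 3 Dap12-het signals and 0 had all below. Of all untested probe sets 18.8% were higher in this way and 2.32% lower. The members were thus near the share over all untested probe sets, and these counts are not a trait of the members. The 5 belong to Slc25a31, Slc25a48, Slc25a54, Timm50 and Tomm20l. The Slc25a54 probe set gave 42.5, 33.3 and 4.64 on Dap12-ko 67, 68 and Ko1, against 3.96, 1.74 and 0.207 on Dap12-het arrays. The Tomm20l probe set gave 15.1, 24.5 and 19.8 on Dap12-ko arrays, against 4.10, 1.90 and 0.633 on Dap12-het arrays.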

How the results depend on the processing

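The count of called members was 3 in the main analysis and 2 or 3 under the settings that kept all 6 arrays, and it ranged from 0 to 26 when 1 array was left out. Members called higher fell to 0 with quantile normalization, median centring, no filter on level, no trend and both 67 and 68 left out, with 0 to 9 over the single-array omissions, and those called lower ranged from 0 to 17. Over all probe sets 445 were called, against 129 after quantile normalization, 334 with a floor of 1, 124 without a filter, 180 without the trend, 116 with 1 probe set per gene, 0 to 5220 with 1 array left out and 615 with 67 and 68 left out. Import partners had 0 called with no filter, the 75% filter, 1 probe set per gene or 67 and 68 left out, and 0 to 9 over the single-array omissions. Other mitochondrial transport had 0 called with quantile normalization, no filter, no trend or 1 probe set per gene, and 0 to 7 over the omissions. The median log2 change of members was 0.04 and moved to -0.36 with median centring. Tyrobp was no longer called with a floor of 1 (-3.02), no filter, no trend or 1 probe set per gene (-1.68 each), and ranged from -1.94 to -1.38 over the omissions.

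Directions turned with median centring for Slc25a1 (-0.36), Slc25a11 (-0.33), Slc25a12 (-0.24), Slc25a3 (-0.34), the brightest Slc25a5 probe set (-0.21), Timm10 (-0.37), Timm17a (-0.28), the brightest Tomm20 probe set (-0.34), Tomm22 (-0.020) and Tomm40 (-0.22), and with quantile normalization for Slc25a3 (-0.36) and Timm23 (0.054). With 67 and 68 left out they turned for Slc25a1 (-0.24), Slc25a20 (0.35), Slc25a46 (0.17), Timm23 (0.11), Tomm40 (-0.46) and Tomm70a (0.57). Over single-array omissions Slc25a1 ranged from -0.15 to 0.18, Slc25a11 from -0.037 to 0.22, Slc25a3 from -0.13 to 0.16, Slc25a37 from -0.13 to 0.039, Timm10 from -0.032 to 0.080, Timm23 from -0.082 to 0.039, the brightest Tomm20 probe set from -0.26 to 0.36 and Tomm40 from -0.059 to 0.49. The cause was not tested. Median centring shifts every probe set by the same -0.40, so those turns are set by the scaling. Of 32 named probe sets, 13 that were not called passed without Ko1, where 23.2% of all probe sets were called. The named probe sets include those with the smallest p-values in these data. No paired analysis was possible because the groups share no replicate numbers. Detection calls were not used here, so how far dim members stood above background is not known.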
